A study of Mus musculus with 10 samples.

Results

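The 44 genes described here belong to cholesterol and fatty acid metabolism and were measured in newborn mouse pancreas. They were chosen by symbol as enzymes and regulators of sterol synthesis, fatty acid synthesis, fatty acid oxidation and ketone body metabolism. All 44 are among the 24062 genes of the count files, and all 44 had at least 5 counts in every library, as did 13882 genes in all. The study asked what IL-23 made early in life does to newborn mice. Pancreas RNA was sequenced from 5 WT and 5 KSR23 mice at post-natal day 5, all C57BL/6, with 1 library per mouse. KSR23 mice carry the R23 allele, an IL-23 cassette in ROSA26 that is silent until Cre removes a stop signal, together with a K14-cre transgene, whose keratin promoter is active in keratinocytes. The labels give the controls as wild type and do not say whether any of them carried 1 of the alleles, and they do not give the sex or litter of a mouse. The paper describes the controls as littermates.

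Values are CPM, read counts set to a common library size by TMM, a scaling that assumes most genes do not differ. A log2 fold change (log2 FC) is KSR23 over WT and is given with its SE. Adjusted p-values come from the quasi-likelihood test of edgeR, with the Benjamini-Hochberg method over the 13882 genes, and a gene was called higher or lower where this value was under 0.05. Gene counts summed to 26830235 to 33189132 per WT library and 16715976 to 57784136 per KSR23 library. Il23a, which encodes the IL-23 subunit p19, had 1 to 9 counts in the WT libraries and 21 to 48 in the KSR23 libraries. WT replicates 1 and 2 stood apart from the other WT mice in Reg3b, a secreted lectin gene, with 19731 and 21233 counts against 127 to 415, and KSR23 mice had 254099 to 1512872. Where the call of a pathway gene named here was lost without these 2 mice, the value without them is given with it. Alignments at more than 1 place took 49.6% to 53.7% of the alignments in WT mice and 38.5% to 42.5% in KSR23 mice, and they were counted on no gene. Acinar, islet and duct markers were abundant, with 6 of 6 acinar and 5 of 5 islet markers lower in KSR23 mice and 4 of 5 duct markers higher.

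Cholesterol is made from acetyl-CoA by a long chain of enzymes whose genes are switched on together by SREBP transcription factors when a cell runs short of sterol. The INSIG proteins hold these factors back in the endoplasmic reticulum when sterol is plentiful. Fatty acids are built by acetyl-CoA carboxylase and fatty acid synthase, lengthened by elongases and given double bonds by desaturases. They are burned in mitochondria after the carnitine shuttle carries them in, and PPAR nuclear receptors, which bind fatty acids, control many genes of this breakdown. Acinar cells, the main cells of the pancreas, need membrane lipid for their dense endoplasmic reticulum and their secretory granules.

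The 14 enzymes of sterol synthesis were lower in KSR23 mice, while among the 10 genes of fatty acid synthesis some were lower and some higher. Among the 8 genes of oxidation and ketone bodies 2 were higher, while of 23 further oxidation genes 11 were lower and 1 higher. Of the 44 genes, 22 were called lower and 7 higher, beside 31.0% of all genes tested that were called in either direction, 14.8% lower and 16.2% higher. In 18 genes the KSR23 range lay wholly below the WT range, which was so for 8.74% of all genes, and in 4 genes it lay wholly above, which was so for 10.7% of all genes. The median log2 FC was -0.41 over the 44 genes and -0.01 over all genes tested. With libraries scaled by their total alone, 72.5% of all called genes were higher, against 52.3% with TMM, the median over all genes was 0.09, and 19 of the 44 genes were lower and 7 higher. Without WT replicates 1 and 2, 19 were lower and 4 higher. In whole tissue, fewer cells of a type and less RNA per cell cannot be told apart.

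**Figure D1:**
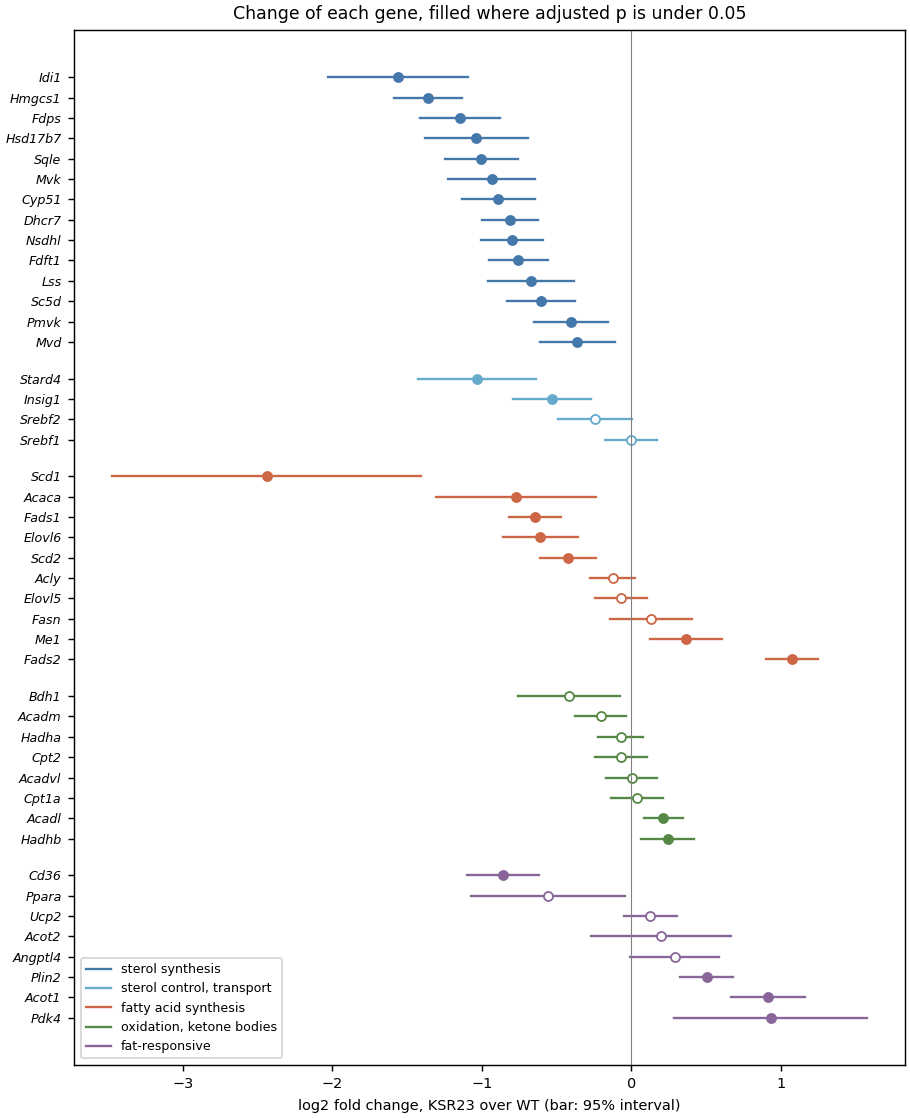
Log2 FC of each of the 44 genes (x axis, KSR23 over WT, log2 scale) with its 95% interval as a bar, in 5 roles by color, from 5 mice per group. Filled points had an adjusted p under 0.05. All 14 enzymes of sterol synthesis lie left of 0, from -1.56 for Idi1 to -0.36 for Mvd, and the 8 genes of oxidation and ketone bodies lie between -0.42 and 0.24.

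All 14 enzymes of sterol synthesis were called lower in KSR23 mice, and 13 of them did not overlap between the groups. Their median log2 FC was -0.85. None was called higher, and none was higher at an unadjusted p under 0.05 or in DESeq2, where 14 were again lower. The CPM summed over the 14 genes was 384 to 432 in WT mice against 179.9 to 262 in KSR23 mice, so that the highest KSR23 mouse stayed well below the lowest WT mouse. Per kilobase of transcript, the level in WT mice ran from 1.72 CPM for Idi1 to 40.03 CPM for Fdps.

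The largest change was that of Idi1, the isomerase that readies the building block of all isoprenoids (chr13:8885501-8892451, plus strand, GRCm38). It measured 4.69, 5.46, 5.51, 5.77 and 4.54 CPM in WT replicates 1 to 5 and 0.981, 2.28, 1.34, 1.42 and 2.62 CPM in KSR23 replicates 1 to 5. The groups were apart, and the mouse nearest to the WT range was KSR23 replicate 5 (log2 FC -1.56 ± 0.22, adjusted p = 3.6e-05). Of the windows of 75 bases along its transcript, 70.9% occur in no other annotated gene. For Hmgcs1, the cytosolic synthase at the head of the mevalonate pathway (chr13:119690379-119708260, plus strand), CPM was 52.2, 63.6, 63.1, 62.00 and 58.4 in WT mice against 20.01, 31.6, 21.2, 20.3 and 23.5 in KSR23 mice. Here KSR23 replicate 2 was the highest of its group and still far below the lowest WT mouse, which was replicate 1 (log2 FC -1.36 ± 0.11, adjusted p = 3.1e-08). The WT mean of Hmgcs1 was 2.57 times the KSR23 mean.

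Fdps, which makes farnesyl diphosphate, measured 58.9, 51.1, 59.5, 58.3 and 48.8 CPM in WT mice against 17.8, 31.1, 20.8, 23.9 and 30.9 CPM in KSR23 mice. The groups did not overlap (log2 FC -1.15 ± 0.13, adjusted p = 1.77e-06). Only 19.6% of the 75-base windows of its transcript occur in no other annotated gene, so its level is uncertain. Gm43738, Gm3571 and Gm5873 share the most windows with it. The share of alignments at more than 1 place was lower in KSR23 mice, as given above, and its part in the Fdps value was not tested. Hsd17b7, a reductase of the steps that strip methyl groups from lanosterol, measured 8.61, 7.51, 10.4, 8.61 and 9.23 CPM in WT mice against 4.02, 5.65, 4.19, 2.71 and 4.98 CPM in KSR23 mice. KSR23 replicate 4 was the lowest, and no KSR23 mouse reached the WT range (log2 FC -1.04 ± 0.16, adjusted p = 0.000105).

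The other enzymes ran in the same direction along the whole pathway. Sqle, the oxygen-dependent epoxidase of squalene, was 58.03 to 64.5 CPM in WT mice against 21.8 to 38.6 CPM in KSR23 mice (log2 FC -1.004 ± 0.12, adjusted p = 3.28e-06). Mvk, the kinase of mevalonate, was 9.12 to 11.6 and 3.80 to 6.17 CPM (log2 FC -0.93 ± 0.14, adjusted p = 5.56e-05). The lanosterol demethylase gene Cyp51 was 38.9 to 45.7 and 17.7 to 29.6 CPM (log2 FC -0.89 ± 0.12, adjusted p = 1.27e-05). These 3 genes were separated between the groups, as were Dhcr7, the reductase of the last step to cholesterol (log2 FC -0.81 ± 0.09), the sterol dehydrogenase gene Nsdhl (-0.80 ± 0.10), the squalene synthase gene Fdft1 (-0.76 ± 0.09), the lanosterol synthase gene Lss (-0.67 ± 0.14) and the desaturase gene Sc5d (-0.60 ± 0.11). The adjusted p of these 5 genes ran from 1.55e-06 for Dhcr7 to 0.00116 for Lss. Exons of Fdft1 overlap those of Ctsb on the other strand over 18.3% of their length.

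The smallest changes were those of Pmvk and Mvd, which act 1 after the other on the phosphates of mevalonate. Pmvk was 9.58 to 13.3 CPM in WT mice against 6.79 to 9.44 CPM in KSR23 mice (log2 FC -0.40 ± 0.12, adjusted p = 0.0155), a call that was lost without WT replicate 2 (log2 FC -0.32, adjusted p = 0.0522). Mvd was 7.40 to 9.75 and 6.15 to 8.26 CPM, with KSR23 replicate 5 inside the WT range (log2 FC -0.36 ± 0.12, adjusted p = 0.0286). Its call was lost without any 1 of 6 mice, WT replicates 1, 2 and 5 and KSR23 replicates 1, 2 and 3, with an adjusted p of at most 0.0644. Without WT replicates 1 and 2 together, neither Pmvk (log2 FC -0.28, adjusted p = 0.133) nor Mvd (log2 FC -0.33, adjusted p = 0.106) was called. With libraries scaled by their total alone, neither Pmvk (log2 FC -0.32, adjusted p = 0.0528) nor Mvd (log2 FC -0.28, adjusted p = 0.0941) was called.

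Among the KSR23 mice, replicate 2 was the highest for 7 of the 14 enzymes and replicate 5 for 6 genes, while replicate 1 was the lowest for 7 and replicate 3 for 6. KSR23 replicates 1 to 4 were below every WT mouse for all 14 genes, and replicate 5 for 13. Acinar markers, summed over 6 genes, were 99242 to 111052 CPM in WT mice against 57716 to 74929.9 CPM in KSR23 mice. Cel, a lipase, took most of this sum. KSR23 replicate 5 was the highest of its group for Ptf1a, Bhlha15, Rbpjl, Cpa1 and Cel, and replicate 3 for Pnlip. In KSR23 replicates 1 to 5 the acinar sum was 57716, 67642, 59272, 60303 and 74929.9 CPM. In the same mice the CPM summed over the 14 sterol enzymes was 179.9, 262, 191, 206 and 255. The part of acinar cell content in the sterol values was not tested.

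**Figure D2:**
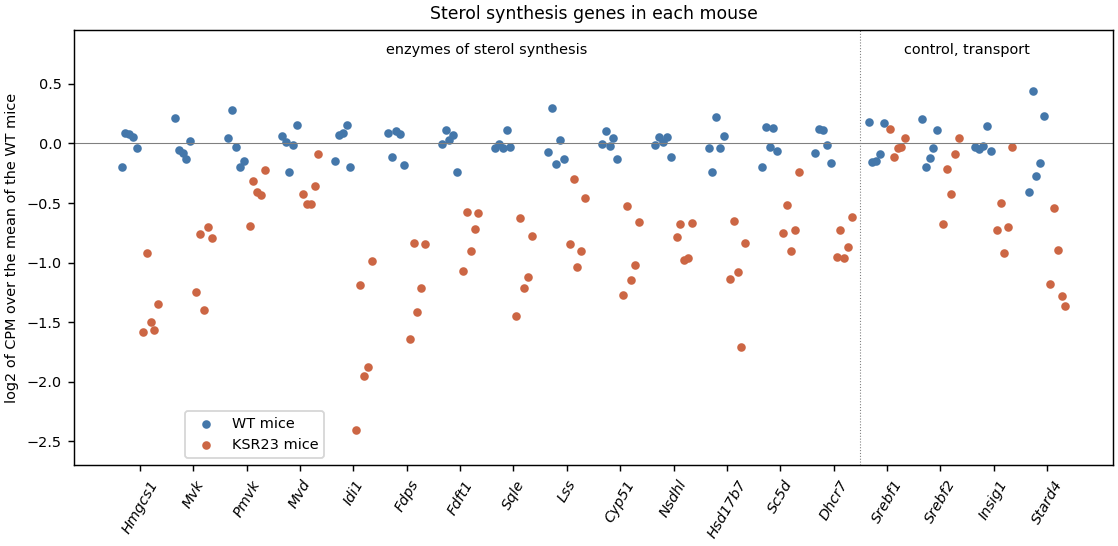
Each mouse's level of the 14 enzymes and 4 control and transport genes of sterol synthesis (y axis, log2 of CPM over the mean of the WT mice; blue, 5 WT mice; orange, 5 KSR23 mice, replicates 1 to 5 from left to right). KSR23 points lie below all WT points for 13 of the 14 enzymes and for Stard4, and among the WT points for Srebf1.

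Promoter sequences of 11 of the 14 enzymes were at hand in the RefSeq table of GRCm38.p6, each a window of 250 bases before and 50 bases after a start site. A CCAAT box, the site of the factor NF-Y, was searched as CCAAT on both strands and was present in at least 1 window of all 11, against 41.1% of the 27025 genes in the table. It was present in 3 of 3 control and transport genes, 4 of 7 genes of fatty acid synthesis, 1 of 8 of oxidation and 5 of 7 of the fat-responsive group. The core of the sterol regulatory element, the SREBP site, was searched as TCACNCCAC on both strands and was present in Hmgcs1 and Ucp2 alone of the 36 members with a promoter, and in 1.44% of the genes in the table. The nuclear receptor core AGGTCA was present in 10 of the 36 members and in 18.1% of the genes in the table, and 2 copies of it in the same direction with 1 base between were in none. Among the members called higher, Me1, Acot1, Plin2 and Pdk4 held a CCAAT box in at least 1 window, and Acadl, Hadhb and Fads2 held none. Among those called lower that had a promoter, Acaca and Elovl6 held none, and the others held at least 1. A match says only that the letters are there. Other forms of these sites were not searched, so a window without a match may still hold one. The 250 bases before the start site are shown for 5 enzymes that were lower in every KSR23 mouse and, last, for Fads2, the gene with the largest rise among the 44, whose window holds none of these motifs. They read 5′ to 3′ on the strand of the gene, and capitals mark CCAAT, its reverse complement ATTGG, and the sterol element of Hmgcs1, while AGGTCA is not marked. The windows lie at chr13:119690101-119690350 (plus strand), chr13:8885356-8885605 (plus), chr5:114444019-114444268 (plus), chr5:4104698-4104947 (minus), chr1:169969206-169969455 (minus) and chr19:10101504-10101753 (minus).
Hmgcs1: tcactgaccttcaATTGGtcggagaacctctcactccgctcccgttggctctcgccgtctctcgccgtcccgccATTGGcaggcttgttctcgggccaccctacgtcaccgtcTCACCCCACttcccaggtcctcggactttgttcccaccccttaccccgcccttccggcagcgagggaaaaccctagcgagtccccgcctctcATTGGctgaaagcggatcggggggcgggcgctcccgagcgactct
Idi1: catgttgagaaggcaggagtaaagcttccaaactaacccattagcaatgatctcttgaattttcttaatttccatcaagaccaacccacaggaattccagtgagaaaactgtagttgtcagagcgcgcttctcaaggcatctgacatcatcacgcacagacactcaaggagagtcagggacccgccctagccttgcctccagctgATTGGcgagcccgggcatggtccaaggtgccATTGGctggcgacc
Mvk: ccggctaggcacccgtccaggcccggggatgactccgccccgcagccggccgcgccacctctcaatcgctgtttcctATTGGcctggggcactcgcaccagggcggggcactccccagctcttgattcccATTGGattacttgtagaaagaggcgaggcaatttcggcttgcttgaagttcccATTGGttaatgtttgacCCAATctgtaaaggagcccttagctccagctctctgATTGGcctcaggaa
Cyp51: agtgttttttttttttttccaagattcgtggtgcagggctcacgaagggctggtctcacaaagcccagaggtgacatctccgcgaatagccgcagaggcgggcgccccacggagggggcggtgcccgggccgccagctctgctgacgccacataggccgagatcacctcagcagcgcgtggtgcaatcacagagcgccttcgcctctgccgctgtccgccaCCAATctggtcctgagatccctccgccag
Hsd17b7: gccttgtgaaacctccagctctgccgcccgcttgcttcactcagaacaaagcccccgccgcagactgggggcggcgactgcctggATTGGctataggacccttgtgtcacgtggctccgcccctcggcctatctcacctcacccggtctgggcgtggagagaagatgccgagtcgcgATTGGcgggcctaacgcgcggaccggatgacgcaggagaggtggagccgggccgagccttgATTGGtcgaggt
Fads2: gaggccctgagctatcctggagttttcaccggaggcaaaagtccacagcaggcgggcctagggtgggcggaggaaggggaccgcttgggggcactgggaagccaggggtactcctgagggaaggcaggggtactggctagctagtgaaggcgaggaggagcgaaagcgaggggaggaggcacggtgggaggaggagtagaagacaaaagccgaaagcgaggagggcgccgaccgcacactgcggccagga

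Among the genes that control and carry sterol, Stard4 and Insig1 were lower in KSR23 mice, and the SREBP genes themselves were not called. Stard4, a carrier of cholesterol between membranes, measured 5.57, 10.02, 6.11, 6.58 and 8.67 CPM in WT mice against 3.27, 5.06, 3.97, 3.03 and 2.87 CPM in KSR23 mice. The KSR23 range lay wholly below the WT range (log2 FC -1.03 ± 0.19, adjusted p = 0.000431). Insig1, which retains the SREBP factors and is itself one of their targets, measured 36.00, 35.5, 36.2, 40.7 and 35.2 CPM in WT mice against 22.3, 26.02, 19.4, 22.5 and 36.05 CPM in KSR23 mice. Replicates 1 to 4 of the KSR23 mice were below the WT range, and replicate 5 lay within it (log2 FC -0.53 ± 0.12, adjusted p = 0.00348).

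Srebf2, whose protein drives the sterol enzymes, measured 27.2, 20.7, 21.7, 23.02 and 25.6 CPM in WT mice against 14.8, 20.4, 17.6, 22.2 and 24.4 CPM in KSR23 mice. The groups overlapped, with KSR23 replicates 4 and 5 in the WT range (log2 FC -0.24 ± 0.12, adjusted p = 0.131). It passed the test without KSR23 replicate 5 (log2 FC -0.33, adjusted p = 0.0445). Srebf1, whose protein drives fatty acid synthesis, measured 43.4, 34.3, 34.5, 35.98 and 43.00 CPM in WT mice against 41.6, 35.4, 37.3, 37.4 and 39.4 CPM in KSR23 mice. The KSR23 values lay inside the WT range (log2 FC -0.00 ± 0.08, adjusted p = 0.999), and the 95% interval of its log2 FC was -0.17 to 0.17. With library totals alone its log2 FC was 0.093.

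Of the 10 genes of fatty acid synthesis and modification, 5 were called lower and 2 higher, beside 14.8% and 16.2% of all genes tested. The summed CPM overlapped between the groups, at 356 to 424 in WT mice against 321 to 378 in KSR23 mice. The genes that start the chain were not called in 2 of 3 cases. Acly, which makes cytosolic acetyl-CoA from citrate, was 153 to 192 CPM in WT mice against 139 to 160.1 CPM in KSR23 mice (log2 FC -0.12 ± 0.07, adjusted p = 0.203). Fasn, the fatty acid synthase, was 19.2 to 28.96 and 20.96 to 34.5 CPM (log2 FC 0.13 ± 0.13, adjusted p = 0.475), with a 95% interval of -0.14 to 0.40. Both genes overlapped between the groups, Acly only from 153 to 160.1 CPM.

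Acaca, the acetyl-CoA carboxylase that commits acetyl-CoA to fat, was low in all mice, at 1.82, 2.44, 2.67, 1.84 and 1.08 CPM in WT mice against 0.880, 1.04, 1.29, 1.47 and 1.12 CPM in KSR23 mice. WT replicate 5 lay inside the KSR23 range, and the other WT mice were above it (log2 FC -0.77 ± 0.25, adjusted p = 0.0283). The call was lost without any 1 of 5 mice, WT replicates 2 and 3 and KSR23 replicates 1, 2 and 5, with an adjusted p of at most 0.0867, and with library totals alone (log2 FC -0.68, adjusted p = 0.0517). It was also lost without WT replicates 1 and 2 together (log2 FC -0.69, adjusted p = 0.112). Of the windows of its transcript, 52.6% occur in no other gene. Me1, a malic enzyme that supplies NADPH for lipid synthesis, measured 10.8, 14.7, 13.55, 9.64 and 10.5 CPM in WT mice against 14.4, 16.5, 16.04, 14.95 and 14.7 CPM in KSR23 mice. WT replicate 2 reached the KSR23 range (log2 FC 0.37 ± 0.11, adjusted p = 0.0202). The call of Me1 was lost without WT replicate 4 (log2 FC 0.30, adjusted p = 0.0634) and without WT replicate 5 (log2 FC 0.32, adjusted p = 0.0515).

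The clearest contrast within fatty acid synthesis was between the neighbouring desaturase genes Fads1 and Fads2, which act in turn on the same polyunsaturated fatty acids. Fads2 (chr19:10062765-10101746, minus strand) measured 27.4, 26.9, 25.7, 25.4 and 28.1 CPM in WT mice against 53.98, 52.8, 47.5, 61.4 and 65.05 CPM in KSR23 mice. The groups were far apart, and the KSR23 mean was 2.103 times the WT mean (log2 FC 1.08 ± 0.08, adjusted p = 2.04e-08). Fads1 (chr19:10182888-10196877, plus strand) measured 35.8, 39.5, 42.2, 40.7 and 40.7 CPM in WT mice against 22.7, 30.6, 24.6, 24.2 and 25.1 CPM in KSR23 mice. It moved the other way, with no overlap of the groups (log2 FC -0.64 ± 0.08, adjusted p = 1.23e-05). The ratio of Fads2 to Fads1 CPM was 0.608 to 0.767 in WT mice and 1.73 to 2.59 in KSR23 mice, and per kilobase of transcript Fads1 was the higher of the pair in WT mice (11.5 against 8.48 CPM) and Fads2 in KSR23 mice (17.8 against 7.36 CPM). Both genes kept their call and direction under all 20 alternatives tried. Elovl6, which lengthens palmitate, measured 7.07, 6.66, 8.597, 7.83 and 8.19 CPM in WT mice against 4.88, 5.48, 4.47, 5.47 and 4.78 CPM in KSR23 mice. Its groups did not overlap (log2 FC -0.61 ± 0.12, adjusted p = 0.000937). Elovl5, the elongase that acts on polyunsaturated fatty acids, was not called (26.7 to 34.4 CPM in WT mice against 25.7 to 30.1 CPM in KSR23 mice, log2 FC -0.07 ± 0.08, adjusted p = 0.573). With library totals alone its log2 FC was 0.025.

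**Figure D3:**
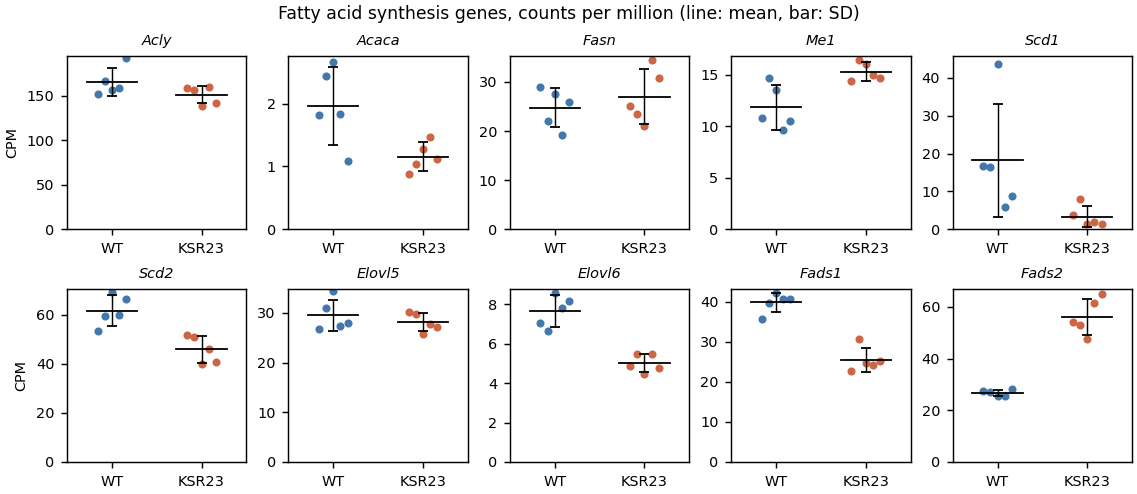
CPM (y axis, from 0) of the 10 genes of fatty acid synthesis in 5 WT mice (blue) and 5 KSR23 mice (orange), with the group mean as a line and the SD as a bar. Fads2 is higher and Fads1, Scd2 and Elovl6 are lower in all KSR23 mice, and for Scd1 the WT mice spread from 5.77 to 43.6 CPM.

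Scd1, a desaturase that makes monounsaturated fatty acids (chr19:44394455-44407879, minus strand), had the largest fall among the 44 genes and the widest spread within a group. It measured 16.7, 16.4, 43.6, 5.77 and 8.67 CPM in WT mice against 3.92, 8.02, 1.34, 1.94 and 1.43 CPM in KSR23 mice. KSR23 replicate 2 lay above WT replicate 4, and the other KSR23 mice were below all WT mice (log2 FC -2.44 ± 0.49, adjusted p = 0.00109). With 1 mouse left out at a time, the log2 FC ran from -3.05 to -1.83, and the gene stayed called. Its relative Scd2, the form found in most tissues, was 53.2 to 69.1 CPM in WT mice against 39.9 to 51.7 CPM in KSR23 mice, without overlap (log2 FC -0.42 ± 0.09, adjusted p = 0.00151).

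Scd1 is abundant in fat cells, and the markers of these cells are given here beside it. Adipoq, Plin1, Cidec, Lep, Retn and Cfd summed to 2.16 to 22.9 CPM in WT mice, highest in replicate 3, and to 0 to 10.2 CPM in KSR23 mice, highest in replicate 2. Those 2 mice also had the highest Scd1 of their groups. KSR23 replicate 4 had a larger marker sum than replicate 1 (3.23 against 1.11 CPM) but a lower Scd1. WT replicate 2 had a larger marker sum than replicate 1 (13.8 against 12.7 CPM) but a slightly lower Scd1. Otherwise the mice of each group ranked alike in both. All 6 markers were at 0 in KSR23 replicate 3, which had the lowest Scd1, and Lep was at 0 in all 5 KSR23 mice. Fabp4, which capillary cells and macrophages express as well, was 81.01 to 113 CPM in WT mice against 28.9 to 49.9 CPM in KSR23 mice (log2 FC -1.33 ± 0.13, adjusted p = 6.09e-07). The brown fat markers Ucp1, Cidea and Dio2 summed to at most 1.19 CPM in any mouse. The part of fat cells in the Scd1 value was not tested.

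**Figure D4:**
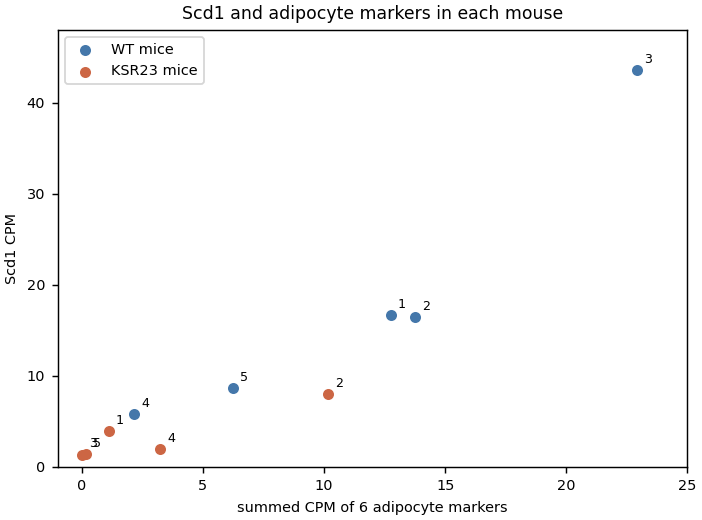
Scd1 CPM (y axis) against the summed CPM of 6 adipocyte markers (x axis) in each mouse (blue, WT; orange, KSR23; numbers are replicates). WT replicate 3 is at 43.6 CPM of Scd1 and 22.9 CPM of markers, and KSR23 replicates 3 and 5 are near 0 on both axes.

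Of the 8 member genes of mitochondrial fatty acid oxidation and ketone bodies, 2 were called higher, by at most 0.24 on the log2 scale, and none was called lower. At an unadjusted p under 0.05, 2 were lower, and 1 was called lower by DESeq2. Their summed CPM was 377 to 419 in WT mice against 378 to 446 in KSR23 mice. Over all genes tested, 16.2% were called higher and 14.8% lower. Of 23 further genes of fatty acid oxidation, described below, 11 were lower and 1 higher. Cpt1a, which loads fatty acids onto carnitine at the outer membrane and sets the pace of their entry, measured 59.6, 54.8, 58.7, 74.7 and 57.2 CPM in WT mice against 64.1, 55.8, 66.96, 62.3 and 63.9 CPM in KSR23 mice. WT replicate 4 was above all other mice of both groups (log2 FC 0.04 ± 0.08, adjusted p = 0.777). The 95% interval of the log2 FC was -0.14 to 0.21. Cpt2, its partner at the inner membrane, overlapped fully (log2 FC -0.07 ± 0.08, adjusted p = 0.583).

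The acyl-CoA dehydrogenases, which take the first step on fatty acids of different lengths, differed in small and unlike ways. Acadl, for long chains, measured 94.8, 91.8, 90.8, 96.4 and 91.4 CPM in WT mice against 112, 95.6, 111, 112 and 109 CPM in KSR23 mice. KSR23 replicate 2 lay within the WT range and the other KSR23 mice above it (log2 FC 0.22 ± 0.06, adjusted p = 0.014). Acadm, for medium chains, was 33.1 to 40.1 CPM in WT mice against 27.8 to 35.00 CPM in KSR23 mice and missed the threshold (log2 FC -0.21 ± 0.08, adjusted p = 0.0622). Acadm passed it without WT replicate 3 (log2 FC -0.25, adjusted p = 0.0377) or without KSR23 replicate 5 (log2 FC -0.24, adjusted p = 0.0479). Acadvl, for very long chains, had a log2 FC of 0.00 (95% interval -0.17 to 0.17), and 42.9% of its exon length overlaps Dvl2 on the other strand.

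Hadha and Hadhb encode the 2 subunits of the mitochondrial protein that carries out the later steps of the cycle. Hadhb measured 25.9, 33.8, 33.4, 34.5 and 31.8 CPM in WT mice against 37.97, 34.7, 40.7, 35.5 and 40.01 CPM in KSR23 mice. The KSR23 values lay above the WT values by a narrow margin (log2 FC 0.24 ± 0.08, adjusted p = 0.0346). Without 1 of 5 mice, WT replicates 1 and 5 and KSR23 replicates 1, 3 and 5, the adjusted p reached at most 0.0809, and without WT replicates 1 and 2 together neither Hadhb (log2 FC 0.19, adjusted p = 0.121) nor Acadl (log2 FC 0.22, adjusted p = 0.0505) was called. Only 42.8% of the windows of Hadhb occur in no other gene. Hadha, which lies next to it, was 50.4 to 59.4 CPM in WT mice against 47.99 to 60.4 CPM in KSR23 mice (log2 FC -0.07 ± 0.07, adjusted p = 0.487).

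Bdh1, which interconverts the ketone bodies acetoacetate and beta-hydroxybutyrate, measured 9.56, 9.33, 7.26, 7.09 and 8.56 CPM in WT mice against 5.15, 4.65, 6.99, 5.62 and 8.83 CPM in KSR23 mice. KSR23 replicates 1 to 4 were below all WT mice, and replicate 5 was within the WT range (log2 FC -0.42 ± 0.16, adjusted p = 0.0586). Bdh1 passed the threshold without KSR23 replicate 5 (log2 FC -0.59, adjusted p = 0.00635). It also did so in edgeR's likelihood ratio test (log2 FC -0.42, adjusted p = 0.0465) and in DESeq2 (log2 FC -0.42, adjusted p = 0.0405).

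**Figure D5:**
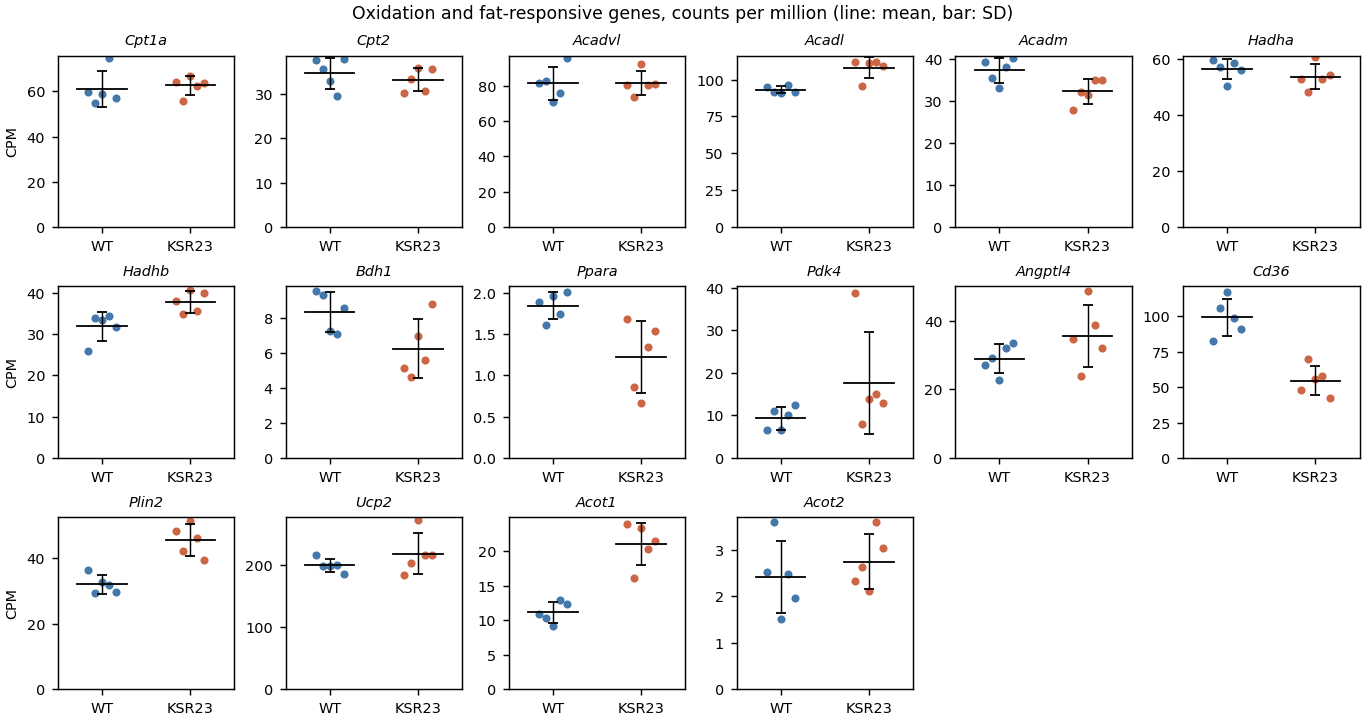
CPM (y axis, from 0) of the 8 genes of oxidation and ketone bodies and of the 8 fat-responsive genes in 5 WT mice (blue) and 5 KSR23 mice (orange), with the group mean as a line and the SD as a bar. The groups are apart for Hadhb, Plin2, Acot1 and Cd36, and KSR23 replicate 1 stands alone at 38.6 CPM of Pdk4.

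Among Ppara and 7 genes that respond to fatty acids, 3 were called higher in KSR23 mice and 1 lower. Over all genes tested, 16.2% were called higher and 14.8% lower. Ppara, the fatty acid receptor, was scarce in every mouse. It measured 1.89, 1.61, 1.97, 1.74 and 2.01 CPM in WT mice against 1.68, 0.859, 0.671, 1.34 and 1.53 CPM in KSR23 mice. KSR23 replicates 2 to 5 were below all WT mice, and replicate 1 was within the WT range (log2 FC -0.56 ± 0.25, adjusted p = 0.0939).

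Acot1, a cytosolic thioesterase that frees fatty acids from CoA, measured 10.96, 10.3, 9.19, 12.96 and 12.3 CPM in WT mice against 23.96, 16.1, 23.4, 20.4 and 21.6 CPM in KSR23 mice. The KSR23 range lay wholly above the WT range (log2 FC 0.92 ± 0.12, adjusted p = 1.03e-05). Its windows are 73.6% unique, and Acot2, 4732463B04Rik and Acot3 are the genes that share the most windows with it. Acot2, the mitochondrial form, was not called (log2 FC 0.20 ± 0.22, adjusted p = 0.538). Plin2, a coat protein of lipid droplets, measured 36.5, 29.5, 32.8, 31.8 and 29.7 CPM in WT mice against 48.5, 42.2, 51.4, 46.3 and 39.4 CPM in KSR23 mice. These groups did not overlap either (log2 FC 0.51 ± 0.08, adjusted p = 0.000194).

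Pdk4, a kinase that turns off pyruvate dehydrogenase and so spares glucose, measured 6.51, 11.05, 6.53, 10.1 and 12.4 CPM in WT mice against 38.6, 8.05, 13.8, 15.1 and 12.8 CPM in KSR23 mice. KSR23 replicate 1 was far above the other 9 mice, and the groups overlapped (log2 FC 0.93 ± 0.31, adjusted p = 0.0277). Without KSR23 replicate 1 the log2 FC was 0.41 with an adjusted p of 0.127, and the call was also lost without WT replicate 1 (log2 FC 0.83, adjusted p = 0.0711), without WT replicate 3 (log2 FC 0.82, adjusted p = 0.0716) and in DESeq2 (log2 FC 0.92, adjusted p = 0.0793). Without WT replicates 1 and 2 together Pdk4 was not called either (log2 FC 0.88, adjusted p = 0.109). Cd36, a receptor for fatty acid uptake, measured 82.8, 106, 117, 99.01 and 91.2 CPM in WT mice against 47.9, 70.1, 55.6, 57.7 and 42.7 CPM in KSR23 mice. It was the gene of this group that was lower, and no KSR23 mouse reached the WT range (log2 FC -0.86 ± 0.11, adjusted p = 1.62e-05). Endothelial cells and fat cells are among the cell types that express Cd36. The endothelial markers Pecam1, Cdh5, Tie1 and Emcn summed to 128 to 137 CPM in WT mice against 124 to 140.4 CPM in KSR23 mice, with Tie1 higher, Cdh5 lower and 2 not called. The part of these or other cell types in the Cd36 value was not tested.

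Angptl4, an inhibitor of lipoprotein lipase, was 22.8 to 33.7 CPM in WT mice against 23.95 to 48.7 CPM in KSR23 mice (log2 FC 0.29 ± 0.14, adjusted p = 0.132). It passed the threshold without KSR23 replicate 2 (log2 FC 0.40, adjusted p = 0.0194). Ucp2, a carrier of the inner mitochondrial membrane, was the gene of the 8 with the highest level per kilobase (49.9 CPM in WT mice against 54.6 CPM in KSR23 mice) and was not called (log2 FC 0.13 ± 0.09, adjusted p = 0.271).

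Other genes of the same pathways were read from lists of 91 further genes, 85 of which were tested. Of these, 22 were called lower and 16 higher, and the shares over all genes tested, 14.8% lower and 16.2% higher, are the background to these counts and to those of each list that follows. In sterol synthesis, 4 of 6 tested genes were lower and none higher, at an unadjusted p under 0.05 or in DESeq2 as well. Tm7sf2, a sterol reductase, was 7.22 ± 1.20 CPM (SD) in WT mice against 2.79 ± 0.663 CPM in KSR23 mice (log2 FC -1.36 ± 0.17, adjusted p = 9.33e-06). Msmo1, a sterol methyl oxidase, was 48.1 ± 5.88 and 20.8 ± 4.76 CPM (log2 FC -1.21 ± 0.13, adjusted p = 1.1e-06). Of the genes that sense, store, move or export cholesterol, 8 of 17 were higher and none lower. At an unadjusted p under 0.05, 1 of them was lower, and none was in DESeq2. Abcg1, an exporter of cholesterol, was 3.09 ± 0.337 CPM in WT mice against 7.72 ± 1.64 CPM in KSR23 mice (log2 FC 1.32 ± 0.16, adjusted p = 4.37e-06). Mylip, a ubiquitin ligase that degrades lipoprotein receptors, was 3.38 ± 0.982 and 6.20 ± 2.06 CPM (log2 FC 0.87 ± 0.23, adjusted p = 0.00695). Macrophages express Abcg1, and 3 of 4 macrophage markers (Adgre1, Csf1r and Cd68, not Mrc1) were higher in KSR23 mice, at a sum of 97.9 to 117 CPM in WT mice against 109.8 to 177 CPM in KSR23 mice. Their part in these values was not tested.

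In fatty acid and glycerolipid synthesis, 2 of 18 tested genes were lower and 3 higher. Acacb, the mitochondrial carboxylase, had a log2 FC of -0.48 ± 0.12 and the elongation reductase gene Tecr of -0.48 ± 0.07, while Lpin1, a phosphatidate phosphatase, had 0.45 ± 0.15 and Gpat4, a glycerol-phosphate acyltransferase, 0.26 ± 0.07. The call of Lpin1 was lost without any 1 of 5 mice, WT replicates 1, 2 and 3 and KSR23 replicates 1 and 4, with an adjusted p of at most 0.0860, and without WT replicates 1 and 2 together (log2 FC 0.35, adjusted p = 0.16). In fatty acid oxidation, 11 of 23 genes were lower and 1 higher. Hadh, a dehydrogenase of the cycle that beta cells hold in large amounts, was 154 ± 2.87 CPM in WT mice against 84.01 ± 11.1 CPM in KSR23 mice (log2 FC -0.88 ± 0.08, adjusted p = 1.4e-07). Acsl1, which activates fatty acids, was 32.5 ± 8.65 and 17.7 ± 2.37 CPM (log2 FC -0.87 ± 0.15, adjusted p = 0.000249). The gene that rose was Crot, a carnitine acyltransferase of peroxisomes (log2 FC 0.82 ± 0.08, adjusted p = 2.58e-07). Islet markers, summed over 5 genes, were 7601 to 10736 CPM in WT mice against 4637 to 5749 CPM in KSR23 mice, and their part in the Hadh value was not tested.

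Of 5 further genes of ketone body metabolism, 1 was higher and 2 lower. Bdh2, a cytosolic dehydrogenase, was 3.17 ± 0.774 CPM in WT mice against 12.6 ± 3.51 CPM in KSR23 mice (log2 FC 2.004 ± 0.19, adjusted p = 2.79e-07), the largest rise among the pathway genes tested. Acat1 (log2 FC -1.08 ± 0.08, adjusted p = 5.64e-09) and Oxct1 (log2 FC -0.89 ± 0.09, adjusted p = 4.62e-07), which act in the use of ketone bodies, were lower. Of 16 tested genes in a list of PPAR targets, lipid storage genes and relatives of these, 3 were higher and 3 lower. Among the called genes, Plin5, a droplet coat protein (log2 FC 1.24 ± 0.27, adjusted p = 0.00208), and the fatty acid transporter gene Slc27a1 (log2 FC 0.47 ± 0.07, adjusted p = 0.000103) rose the most, and Pdk3 (log2 FC -0.38 ± 0.08, adjusted p = 0.00256) and Pdk1 (log2 FC -0.35 ± 0.09, adjusted p = 0.00754), relatives of Pdk4, fell the most. With library totals alone the call of Pdk1 was lost (log2 FC -0.26, adjusted p = 0.0519), and 1 gene of this list was lower. Pparg, the receptor of fat cell formation, was not called (log2 FC 0.23 ± 0.18, adjusted p = 0.339).

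Duct markers, summed over 5 genes, were 929 to 1042 CPM in WT mice against 1538 to 1697 CPM in KSR23 mice, and their part in the values above was not tested. The liver markers Alb, Apoa2, Ahsg and Cyp2e1 were each at most 5.57 CPM in any mouse. Alb was called lower (log2 FC -0.83 ± 0.25, adjusted p = 0.0186), and the others were too low to be tested. Of these, Ahsg was 0.129 to 0.350 CPM in WT mice against 0.622 to 2.73 CPM in KSR23 mice, and Apoa2 and Cyp2e1 overlapped between the groups. Ttr, which islets also express, was 140.1 to 178 CPM in WT mice against 34.9 to 40.7 CPM in KSR23 mice. The gut markers Fabp2, Vil1, Apoa4 and Sis summed to 5.59 to 7.74 CPM in WT mice against 7.07 to 20.7 CPM in KSR23 mice. Vil1 (log2 FC 0.41 ± 0.14, adjusted p = 0.0336) and Apoa4 (log2 FC 2.56 ± 0.90, adjusted p = 0.0384) were called higher, and Fabp2 and Sis were not tested. Apoa4 was at 12.0 CPM in KSR23 replicate 2 and at most 0.629 CPM in the other mice. The hemoglobin genes Hbb-bs and Hba-a1 were listed at 0 in every library. Alas2, the other erythroid marker, was 20.4 to 56.8 CPM in WT mice against 19.04 to 75.8 CPM in KSR23 mice. It was not called (log2 FC -0.23 ± 0.31, adjusted p = 0.619). Of 3 tested lymphocyte markers, Cd3e was lower, and of 2 mesothelial markers, Upk3b was lower.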

How the data were processed

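Pancreas RNA of 5 WT and 5 KSR23 mice was sequenced by the authors as 75-base single reads after oligo-dT priming (SMART-Seq v4), with no molecular identifiers named. Reads were aligned with TopHat 2.1.0 (mm10), and the authors deposited the counts per gene as htseq-count gave them, without normalization (HTSeq 0.6.1p1 in the submitters' processing notes). Annotation release and strand setting are not given in the sources used here. Tallies of unassigned alignments were left out of library sizes, and those on no feature were 2.69% to 3.28% of all.

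A gene was tested if no library held fewer than 5 counts of it. Counts were scaled by TMM and tested in edgeR 4.0.16 (R 4.3.3) with the quasi-likelihood test and Benjamini-Hochberg adjustment. The study's likelihood ratio test, DESeq2 1.42.0, other scalings and filters, a replicate block and the omission of each mouse in turn were alternatives. Leaving out WT replicates 1 and 2 together was chosen after seeing the data. The SE of a log2 FC was its size over the square root of F. A two-sided exact permutation test (252 splits) was also run on each single gene, and its smallest p, 0.00794, was reached by every gene without overlap. Code was tested on simulated data. P-values measure the spread between these mice, and counting error alone covers neither PCR copies nor preparation. At 3 counts the floor was 0.0519 to 0.179 CPM.

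The members and all gene lists were chosen with earlier results of these data known. Values in every mouse are given for Srebf1, Srebf2, Insig1, Ppara, Bdh1 and Cpt1a and, in each role, for up to 4 called genes with the largest change in each direction. In each list of other pathway genes the 2 largest called changes in each direction are named, with Pparg. Of these lists, 2 genes are not reported here and were taken out of the counts. Positions are GENCODE M21 on GRCm38, and 75-base windows of the longest transcript were matched to all other annotated genes.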

Additional observations from a re-analysis of the deposited data

Results flagged for a closer look

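Of the 88 sets of 5 values, 2 for each of the 44 genes, 6 held a mouse farther from the others than Dixon's critical value of 0.71 allows, where chance gives about 4.4. Scd1 in WT replicate 3 was 43.6 CPM, with the other WT mice at 5.77 to 16.7 CPM, and this mouse also had the highest adipocyte marker sum, 22.9 CPM. Pdk4 in KSR23 replicate 1 was 38.6 CPM, with the other KSR23 mice at 8.05 to 15.1 CPM. Acadl in KSR23 replicate 2 was 95.6 CPM, with the others at 109 to 112 CPM. WT replicate 4 was the highest WT mouse for 3 of the 6, at 64.5 CPM of Sqle (others 58.0 to 59.6), 40.7 CPM of Insig1 (others 35.2 to 36.2) and 74.7 CPM of Cpt1a (others 54.8 to 59.6). No cause was tested for any of them.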

How the results depend on the processing

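Over 63 named genes and up to 20 alternatives each, the log2 FC kept its direction and its side of the threshold in 1190 cases, lost its call in 42, gained one in 7 and changed sign in 19. The sign changes were all in genes that were not called. With library totals alone the log2 FC was 0.093 for Srebf1, 0.025 for Elovl5, 0.023 for Cpt2 and 0.023 for Hadha, and the differences in mean CPM were 2.45, 0.483, 0.570 and 0.978 for Srebf1, Elovl5, Cpt2 and Hadha. Srebf1 was 0.0033 with the replicate block, 0.016 without WT replicates 1 and 2 together and -0.040 to 0.050 with 1 mouse left out. Cpt1a was -0.022 without WT replicates 1 and 2 together and -6.26e-05 to 0.12 with 1 mouse left out. Acadvl was -0.0063 without the 50 highest genes, -0.0038 with no filter, -0.0019 with at least 20 counts and -0.047 to 0.060 with 1 mouse left out.

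The 14 sterol enzymes called lower were 12 to 14 under every alternative, and the members called lower 19 to 24. With library totals alone 1164 genes in all were lower and 3072 higher, and the summed CPM of oxidation genes differed by 38.2 rather than 11.5. Without WT replicates 1 and 2 together, 4 members and 0 oxidation genes were higher. With 1 mouse left out, 1 to 2 fatty acid synthesis genes and 1 to 2 oxidation genes were higher, and 0 to 2 oxidation genes were lower. The likelihood ratio test and DESeq2 each called 1 oxidation gene lower. The cause of these shifts was not tested.

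Replicate numbers did not pair the mice, since deviations from the group means correlated by -0.111 to 0.0661 between mice of the same number and 1 of 5 correlated best with its own number. With the replicate block 5 members were higher and 21 lower, 1 oxidation gene was higher, and 1998 genes in all were higher and 1751 lower. The calls of Acaca (adjusted p = 0.0533), Hadhb (adjusted p = 0.0529) and Pdk4 (log2 FC 0.74, adjusted p = 0.0760) were lost with it. Low counts limit Ppara, with as few as 12 reads in a library, Acaca, with 23, and Idi1, with 24. Scd1 also had few reads in the smallest KSR23 library.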
